A study of Mus musculus with 6 samples.

Results

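Genes for protein entry into the endoplasmic reticulum (ER) and for early traffic out of it were compared between whole pancreas of Ela1-Myc mice and of wild-type (WT) mice, all 8 weeks old. The list holds 37 genes chosen by function, and 36 of them have a row in the deposited tables of 23099 gene symbols; Kdelr3 was not analysed here. The genes fall into 4 steps: 19 for the signal recognition particle (SRP) and translocon, 5 for glycosylation, 7 for COPII export and 5 measured genes for COPI and retrieval. There were 3 Ela1-Myc and 3 WT libraries of polyadenylated RNA, mixed with ERCC spike-in RNA and sequenced with strand kept on a Genome Analyzer IIx. The name Ela1-Myc stands for a Myc transgene driven by elastase 1 regulatory sequence, which as background is active in the enzyme-secreting acinar cells of the pancreas and not in all of its cells. The labels give neither the strain background of either group nor whether a library came from 1 animal or a pool. The question behind the comparison, from the study's title, is whether MYC has to decline for acinar cells to mature.

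Acinar cells export more protein than almost any other cell, and every digestive enzyme passes through this route. The SRP binds the signal peptide of a nascent protein and docks at its receptor. The Sec61 channel then takes the chain through the ER membrane, signal peptidase cuts the signal peptide and oligosaccharyltransferase attaches sugar chains. COPII coats bud vesicles towards the Golgi, and COPI coats with the KDEL receptors bring escaped ER residents back.

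Values are the adjusted FPKM of the authors, here divided by 100000. Plain FPKM is a fragment number corrected for transcript length and library total. What the adjustment changed is unknown, as is whether the ERCC spike-in RNA entered it. The adjusted values did not have equal totals: libraries summed to between 629597 (Ela1-Myc replicate 2) and 1948840 (WT replicate 2). Sequencing depth is unknown. On the deposited scale, the median of the 8802 genes tested lay 1.22 log2 units higher in Ela1-Myc. A second fit therefore divided each library by its median-of-ratios size factor, which moved that median to 0.22, and each member is given on both scales. A fall after scaling is a fall against the typical gene. Whether the general shift on the deposited scale is real was not tested. A value listed at 0 may be a failed estimate: the glycolytic gene Gapdh had 346.6, 465.2 and 342.5 in the Ela1-Myc libraries, and 0, 69.2 and 0 in the WT libraries, replicates 1, 2 and 3 in that order as everywhere here. Tested genes at 0 numbered 0, 29 and 13 in the Ela1-Myc libraries and 1061, 592 and 1426 in the WT libraries. RNA integrity numbers on the sample labels were 8.8, 7.2 and 8.3 in Ela1-Myc and 7.3, 7.3 and 7.1 in WT, and 5 of the 6 lie below the minimum of 8.5 that the extraction protocol gives. Myc stood at 52.0, 34.4 and 34.2 in Ela1-Myc and at 0, 4.10 and 0 in WT.

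Markers of acinar cells were present in every library. Calls for the markers of other cell types are to be read against the 70.2% of all genes that were higher on the deposited scale, and the 17.1% that were higher and 7.1% that were lower after scaling. All 12 acinar markers were above 0 in all 6 libraries; 1 was higher and 4 lower on the deposited scale, and none higher and 9 lower after scaling. Of 9 macrophage markers tested, all were higher on the deposited scale and 6 once scaled. Their summed values were 357.7 to 1054 in Ela1-Myc and 0.952 to 54.6 in WT, and Cd68 at 0 in all 3 WT libraries. Lymphocyte markers summed to 22.3 to 219.9 in Ela1-Myc and 0 to 42.0 in WT; of 9 tested, 9 were higher on the deposited scale and 1 after scaling. Stellate markers summed to 371.2 to 572.9 in Ela1-Myc and 48.9 to 112.2 in WT, with 6 of 7 higher on the deposited scale and 3 once scaled. Islet markers summed to 2447 to 3367 in Ela1-Myc and 0.242 to 2481 in WT, where 9 of 11 stood at 0 in replicate 1; of 9 tested, 7 were higher on the deposited scale and 2 once scaled. Duct markers summed to 188.0 to 347.2 in Ela1-Myc and 74.5 to 205.6 in WT, where 3 of 8 stood at 0 in replicates 1 and 3; of 7 tested, 5 were higher on the deposited scale, and 1 was higher and 1 lower once scaled. Plasma cell markers summed to 187.2 to 266.3 in Ela1-Myc and 118.1 to 230.0 in WT, endothelial markers to 24.2 to 30.0 in Ela1-Myc and 10.4 to 14.8 in WT, and adipocyte markers to 151.6 to 533.6 in Ela1-Myc and 15.0 to 241.4 in WT. Those higher on the deposited scale numbered 2 of 3, 3 of 6 and 3 of 4 tested for these lists; once scaled, 1 plasma cell marker was higher and 1 lower. The part of these cells, and of RNA integrity, in the results for the secretory genes was not tested. In bulk tissue, fewer cells of a type and less RNA per cell cannot be told apart.

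Most of the secretory genes, like most genes tested, had higher deposited values in Ela1-Myc, and most of the secretory genes had lower ones once scaled. The log2 change was positive for 35 of the 36 on the deposited scale, against 8454 of all 8802 genes. After scaling it was negative for 27 of the 36, against 3363 of all 8802. In the fit of deposited values, 9 of the 36 rose in Ela1-Myc (limma, adjusted p of 0.05), or 25%, against 70.2% of all genes tested. None fell, against 0.239% of all genes at that adjusted p. None fell at an unadjusted p of 0.05 either, where the share of all genes was not counted. The 9 were Ssr1, Ssr2, Rpn1, Ddost, Stt3a, Copb1, Copb2, Kdelr1 and Kdelr2. Over all 36 the median log2 change was 1.04, against 1.22 over all genes tested. After scaling, 1 of 36 rose (2.78%, against 17.1% of all genes) and 4 fell (11.1%, against 7.1%), and the members' median was -0.39, against 0.22. The gene that rose was Stt3a, and those that fell against the typical gene were Srp9, Sec62, Ssr4 and Sec11c. On the deposited scale the log2 changes of Srp9, Sec62 and Sec11c were 0.09, 0.27 and 0.06, and that of Ssr4 was -0.29. The lowest Ela1-Myc value exceeded the highest WT value for 14 of the 36 on the deposited scale (38.9%, against 75.3% of all genes) and for 3 after scaling (8.33%, against 28.9%). The highest Ela1-Myc value was under the lowest WT value for 0 on the deposited scale (against 0.534%) and for 10 after scaling (27.8%, against 17.2%). All 36 had passed the filter of a mean of at least 1.

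The count on the deposited scale depended on WT replicate 2. That library stood above WT replicate 1 for all 36 genes, by a median factor of 2.91, and above WT replicate 3 for all 34 genes that were not at 0 there, by 2.69. Without it, 30 of the 36 rose (83.3%, against 81.1% of all genes) and none fell (against 0.131%). After scaling without it, 3 rose (Rpn1, Ssr1 and Stt3a; 8.33%, against 21.2%) and 3 fell (Srp9, Sec62 and Ssr4; 8.33%, against 5.95%). With limma's library weights, which gave WT replicate 3 a weight of 12 and did not converge, 30 rose (against 86%) and none fell (against 1.5%). On the deposited scale 4 members rose without WT replicate 1 (against 58.7% of all genes) and 4 without WT replicate 3 (against 62%). Without Ela1-Myc replicate 1, 2 or 3, the members that rose numbered 3, 5 and 3, against 58.9%, 61.8% and 49.5% of all genes. After scaling, no member passed in either direction without WT replicate 3 (10.3% of all genes higher and 3.85% lower), Ela1-Myc replicate 2 (6.29% and 1.91%) or Ela1-Myc replicate 3 (5.4% and 1.76%). Without WT replicate 1, 0 rose (against 18.7%) and 2 fell, Sec62 and Ssr4 (against 6.51%). Without Ela1-Myc replicate 1, 0 rose (against 12.9%) and 4 fell (against 6%): Srp9, Ssr4, Sec11c and Srpr, while Sec62 no longer passed. With size factors taken from genes with a mean of at least 5, nearer to the members' levels, 2 rose (Rpn1 and Stt3a; 5.56%, against 22.5%) and 6 fell (Srp9, Srpr, Sec62, Ssr4, Sec11c and Mcfd2; 16.7%, against 5.19%). That setting was chosen after seeing the data. Ssr1, Rpn1 and Stt3a rose on the deposited scale whichever library was left out.

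**Figure D1:**
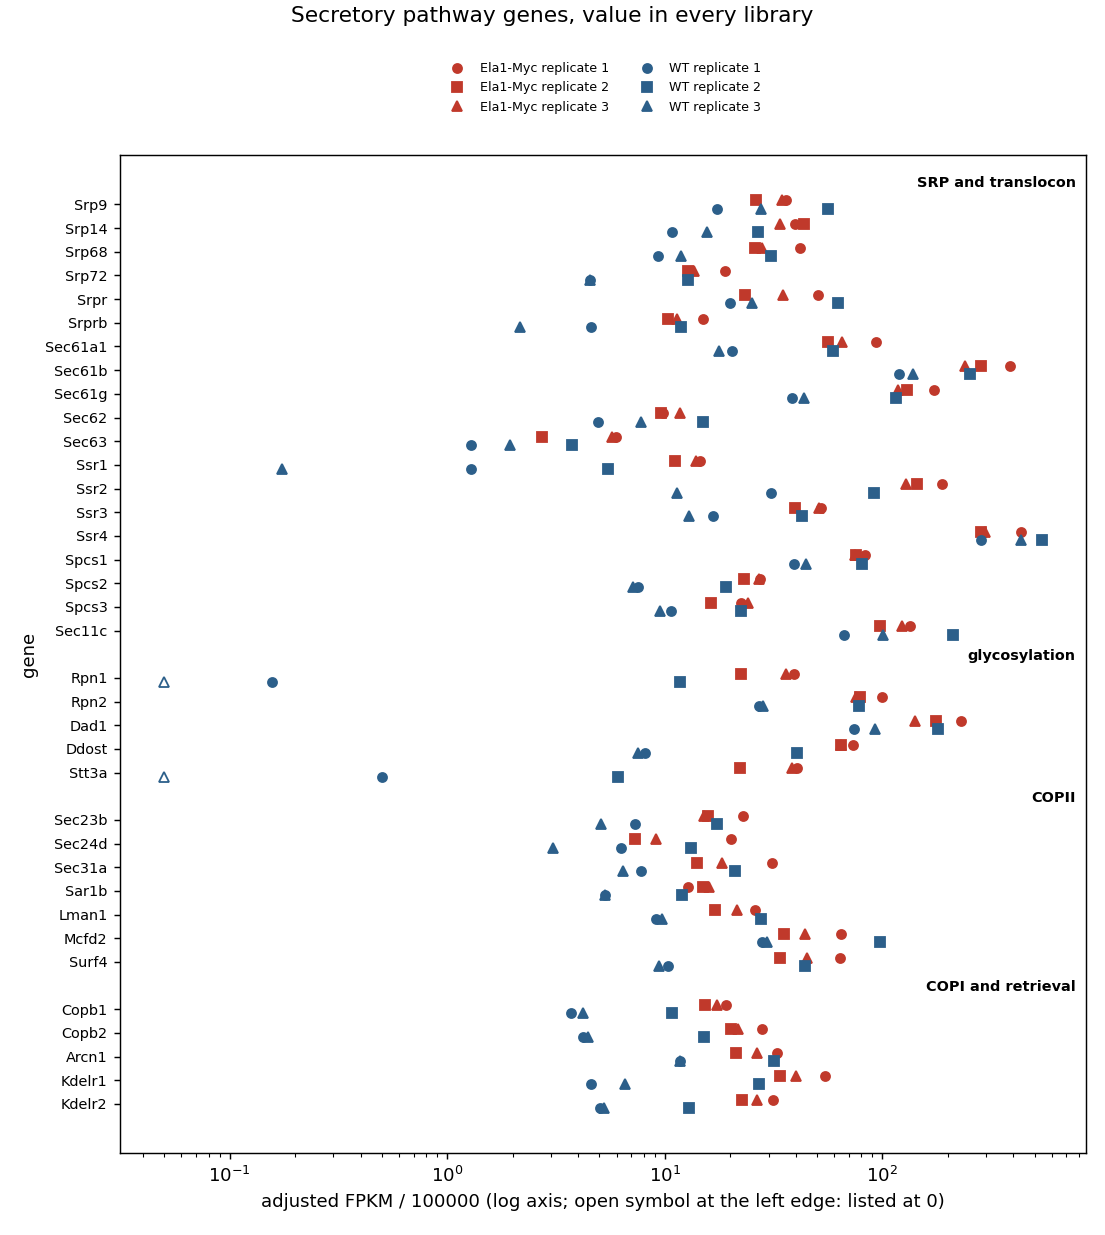
Adjusted FPKM divided by 100000 (log axis) of the 36 genes in every library, by step, with Ela1-Myc in red above WT in blue; open symbols at the left edge mark values listed at 0. WT replicate 2 (blue squares) lies to the right of the other WT libraries for every gene, while Ssr4 spans 283.5 to 435.0 in Ela1-Myc and 282.9 to 538.9 in WT.

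**Figure D2:**
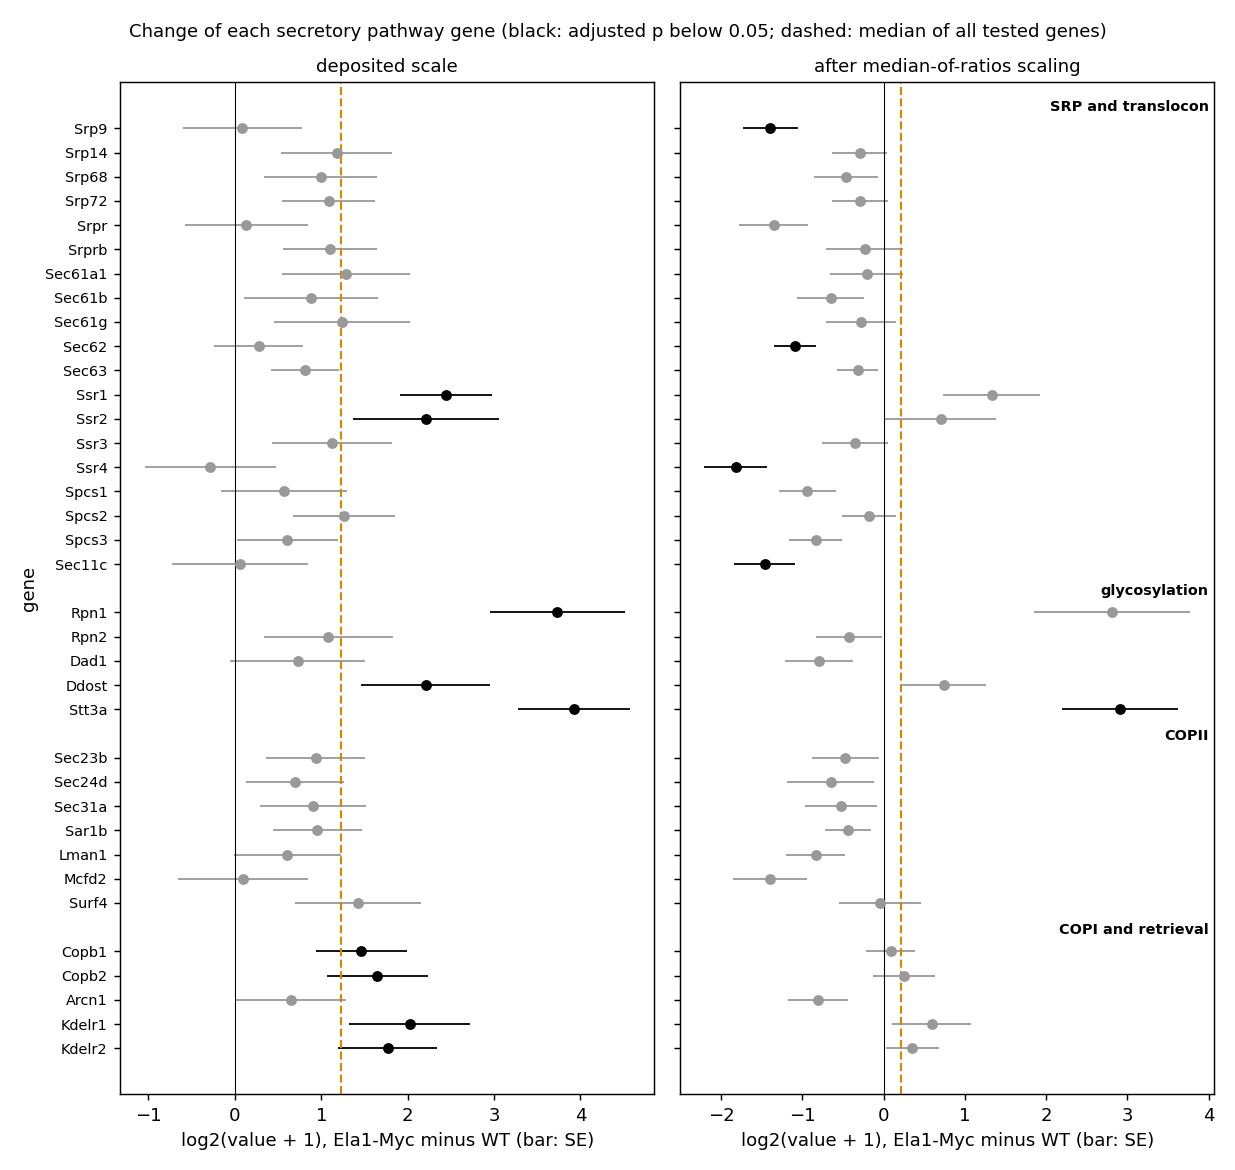
Difference in log2(value + 1), Ela1-Myc minus WT, with its SE, for each gene on the deposited scale (left) and after median-of-ratios scaling (right); black points passed an adjusted p of 0.05 and the dashed lines mark the median of all tested genes, 1.22 and 0.22. The differences of Rpn1 and Stt3a take zeros listed in WT as measured values.

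A comparison inside each library needs no scale between libraries, and the shares of the steps differed between the groups. The COPI and retrieval genes made up 6.09%, 5.86% and 6.63% of the summed values of the 36 genes in the Ela1-Myc libraries, against 3.18%, 4.23% and 2.81% in the WT libraries. The glycosylation genes took 17.7%, 18.9% and 17.9% in Ela1-Myc and 11.9%, 13.7% and 11.2% in WT. The SRP and translocon genes took 67.4%, 68.1% and 67.0% in Ela1-Myc and 76.8%, 71.9% and 80.0% in WT. In these 3 steps the groups did not overlap. The COPII genes overlapped, with 8.87%, 7.16% and 8.49% in Ela1-Myc and 8.05%, 10.1% and 5.99% in WT. Much of the translocon share was Ssr4, which alone took 16.0%, 14.7% and 14.8% in Ela1-Myc and 30.8%, 23.4% and 37.9% in WT. With Ssr4 left out, the COPI share was 6.87% to 7.78% in Ela1-Myc and 4.52% to 5.53% in WT, while glycosylation averaged 21.4% in Ela1-Myc and 17.7% in WT and the SRP and translocon 61.7% in Ela1-Myc and 65.9% in WT, and these groups did not overlap either. These shares carry no test, since the genes were chosen with earlier results known, and they describe the members and not every gene of a step. The 18 other COPI and retrieval genes tested had a median scaled log2 change of -0.27, against 0.25 for the 5 members. For glycosylation the median was 0.07 over 16 other genes, against 0.74 for the members.

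**Figure D3:**
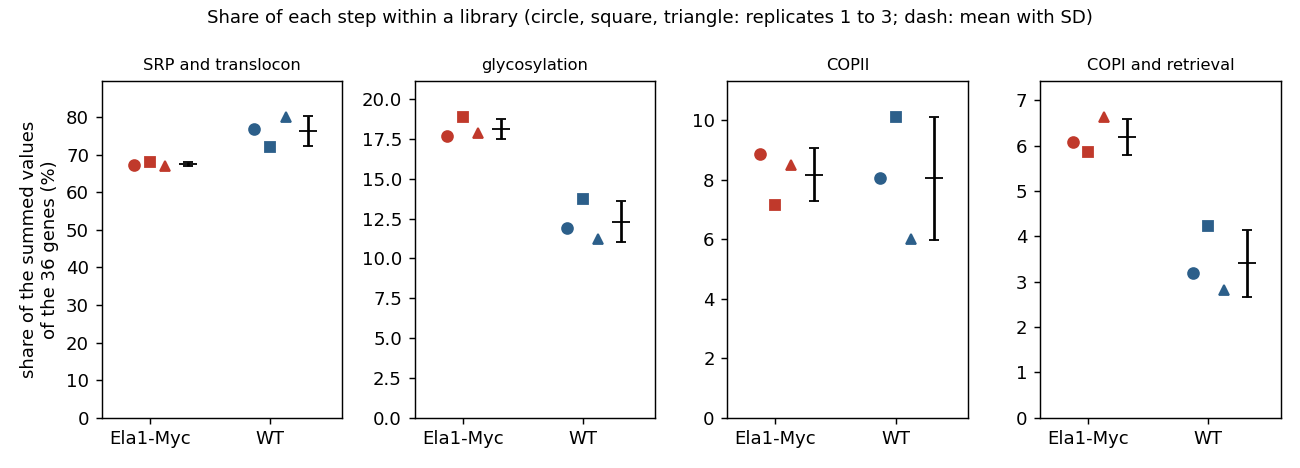
Share of each step in the summed values of the 36 genes (%), per library, with the mean and SD of 3 libraries beside the points, Ela1-Myc left of WT; each vertical axis starts at 0. In Ela1-Myc and WT (SD, n = 3 each), glycosylation averaged 18.1% ± 0.646 and 12.3% ± 1.29, COPI and retrieval 6.19% ± 0.393 and 3.41% ± 0.739, and COPII 8.17% ± 0.898 and 8.05% ± 2.06.

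Set against their cargo, the secretory genes stood higher in Ela1-Myc. The 36 genes summed to 3.38, 4.96 and 3.75 per 1000 units of summed digestive enzyme value in Ela1-Myc and to 1.52, 1.31 and 1.05 in WT. Against everything else the order was the other way: they made up 0.953%, 0.801% and 0.875% of the values outside the digestive enzymes in Ela1-Myc and 1.47%, 1.25% and 1.24% in WT. The groups did not overlap in either measure. The enzymes themselves took 73.8%, 61.7% and 70.0% of all values in Ela1-Myc and 90.7%, 90.6% and 92.2% in WT.

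In the SRP, Srp9, which with Srp14 forms the domain that slows translation, fell after scaling. Srp9 (chromosome 1, 182124737 to 182132407, GRCm38) stood at 36.1, 26.2 and 34.6 in Ela1-Myc and at 17.4, 55.9 and 27.6 in WT. The groups overlapped on that scale, with a log2 change of 0.09 ± 0.686 (SE; limma adjusted p = 0.909). Scaled values were 22.0, 16.7 and 16.2 in Ela1-Myc and 42.0, 62.7 and 45.3 in WT, without overlap, and the change was -1.40 ± 0.338 (limma adjusted p = 0.0281). Its partner Srp14 stood at 39.6, 43.7 and 33.9 in Ela1-Myc and at 10.8, 26.9 and 15.6 in WT, and it passed on neither scale (limma adjusted p = 0.109 and 0.537). The Srp14 value was 1.09, 1.66 and 0.979 times that of Srp9 in Ela1-Myc and 0.620, 0.480 and 0.564 times in WT, without overlap. The gene pairs set as ratios here and below were chosen after their values were seen. How often other gene pairs overlap was not counted, so a gap between the groups is only a description. Srp68 and Srp72, which pair on the other end of the particle, passed on neither scale: Srp68 differed by 0.99 (limma adjusted p = 0.177) and Srp72 by 1.09 (0.0805), and the scaled differences were -0.46 and -0.29.

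The SRP receptor has a peripheral alpha subunit, Srpr, and a membrane anchor, Srprb. Srpr stood at 50.8, 23.3 and 35.0 in Ela1-Myc and at 19.9, 62.3 and 25.2 in WT. Its log2 change was 0.13 (limma adjusted p = 0.869), and -1.35 after scaling, where all Ela1-Myc values were below all WT values (limma adjusted p = 0.0565). Srprb did not pass on either scale, with 10.3 to 15.0 in Ela1-Myc and 2.17 to 11.9 in WT. Exons of Srpr and Srprb overlap other annotated genes, on the opposite strand for Srpr and on the same strand for Srprb. So do exons of Sec61a1, Sec62, Sec63, Spcs1, Rpn1, Rpn2 and Surf4, on the opposite strand. Reads in these overlaps could belong to either gene.

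No subunit of the Sec61 channel passed on either scale in limma, also at an unadjusted p of 0.05. At the adjusted p of 0.05, 70.2% of all genes were higher on the deposited scale, and 17.1% were higher and 7.1% lower after scaling. Sec61b, the small beta subunit, stood at 386.8, 283.0 and 240.4 in Ela1-Myc and at 119.4, 253.1 and 137.9 in WT, a log2 change of 0.88 ± 0.779 (SE; limma adjusted p = 0.308) and -0.65 after scaling (0.275). Sec61a1, which forms the pore, and Sec61g differed by 1.29 and 1.24 on the deposited scale, and by -0.21 and -0.28 after scaling. The Sec61a1 value was 0.241, 0.198 and 0.270 of that of Sec61b in Ela1-Myc and 0.171, 0.235 and 0.128 in WT, so the groups overlapped. Sec61g was at 0.448, 0.459 and 0.491 of Sec61b in Ela1-Myc and at 0.323, 0.458 and 0.316 in WT, where replicate 2 reached the lower Ela1-Myc values. Levels are per length of transcript, as FPKM is, although the authors' adjustment is unknown.

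Sec62 and Sec63 help small precursors through the channel after translation. Sec62 (chromosome 3, 30792875 to 30821263) stood at 9.83, 9.64 and 11.7 in Ela1-Myc and at 4.91, 15.0 and 7.76 in WT. After scaling it stood at 5.98, 6.14 and 5.47 in Ela1-Myc and at 11.8, 16.8 and 12.7 in WT, and it fell by 1.09 log2 units (limma adjusted p = 0.0259). The deposited scale gave 0.27 (adjusted p = 0.629). Sec63, the J-domain partner that works with the ER chaperone BiP, passed on neither scale, with 2.72 to 5.94 in Ela1-Myc and 1.29 to 3.76 in WT. An annotated antisense gene overlaps a Sec62 exon, and whether strand was used in counting was not given in the sources used here.

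Within the TRAP complex, a translocon-associated complex of 4 subunits that aids the entry of certain precursors, the subunits had differing changes. Ssr1, the alpha subunit (chromosome 13, 37966605 to 37994217), stood at 14.5, 11.1 and 13.9 in Ela1-Myc and at 1.28, 5.45 and 0.174 in WT. It rose by 2.44 ± 0.537 log2 units (SE; limma adjusted p = 0.00149), and the scaled change was 1.33 (0.142), still with every Ela1-Myc value above every WT value. Ssr2, the beta subunit (chromosome 3, 88575876 to 88588419), stood at 188.6, 143.4 and 128.6 in Ela1-Myc and at 30.7, 91.0 and 11.3 in WT. It rose by 2.21 ± 0.846 (limma adjusted p = 0.0310); the scaled difference was 0.70 (0.463), with overlap. Ssr3 passed on neither scale, with 39.5 to 52.1 in Ela1-Myc and 12.9 to 42.5 in WT.

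Ssr4, the delta subunit (chromosome X, 73787028 to 73790830), had the highest mean of the 36 genes and fell after scaling. It stood at 435.0, 283.5 and 295.0 in Ela1-Myc and at 282.9, 538.9 and 434.0 in WT. The deposited-scale change was -0.29 (limma adjusted p = 0.731), the 1 negative value among the members. Scaled values were 264.4, 180.3 and 137.8 in Ela1-Myc and 681.8, 604.1 and 712.0 in WT, and Ssr4 fell by 1.82 ± 0.384 log2 units (SE; limma adjusted p = 0.0183). The ratio of Ssr1 to Ssr4 inside a library was 0.0332, 0.0391 and 0.0471 in Ela1-Myc, against 0.00452, 0.0101 and 0.00040 in WT. That of Ssr2 to Ssr4 was 0.434, 0.506 and 0.436 in Ela1-Myc, against 0.109, 0.169 and 0.0261 in WT. Neither ratio overlapped between the groups, for pairs chosen after their values were seen.

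**Figure D4:**
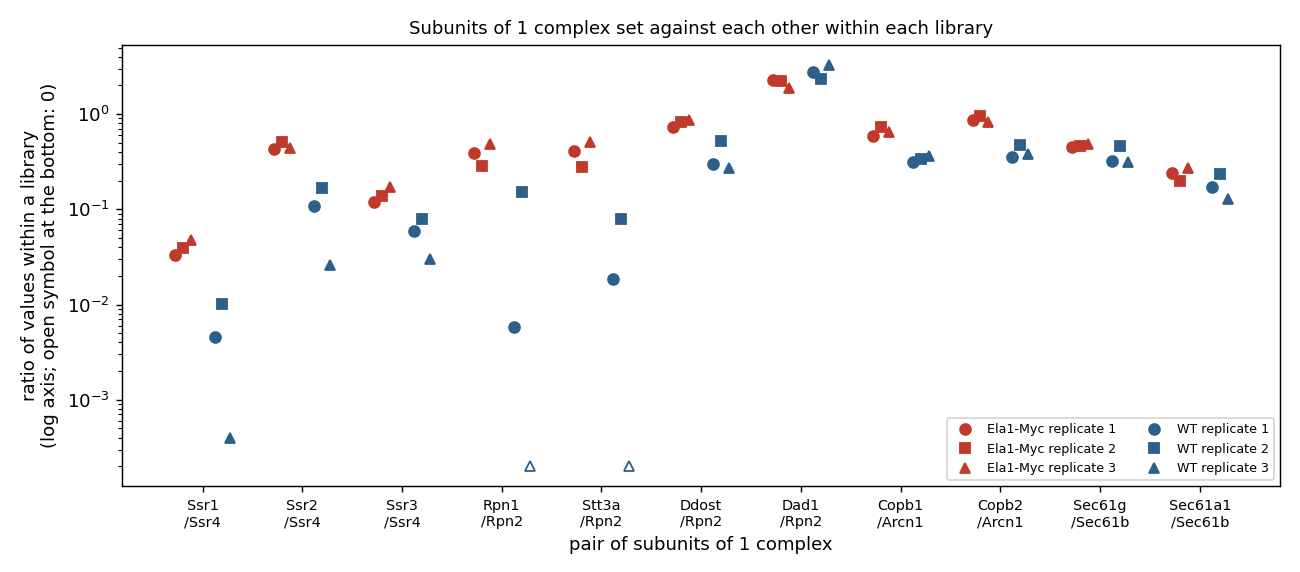
Ratios of subunits of the same complex inside each library (log axis), Ela1-Myc in red left of WT in blue; open symbols at the bottom mark a ratio of 0. Ratios to Ssr4 in TRAP and to Arcn1 in COPI do not overlap between the groups, Dad1 over Rpn2 is lower in Ela1-Myc, and both Sec61 ratios overlap. The pairs were chosen after their values were seen.

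Of the 4 signal peptidase genes, 1 fell after scaling (against 7.1% of all genes) and none passed on the deposited scale, where 70.2% of all genes were higher. Sec11c, a catalytic subunit, stood at 134.2, 97.1 and 123.1 in Ela1-Myc and at 66.7, 210.1 and 100.4 in WT, a log2 change of 0.06 (limma adjusted p = 0.944). It fell by 1.46 ± 0.374 after scaling (SE; limma adjusted p = 0.0332), with 81.6, 61.8 and 57.5 in Ela1-Myc and 160.6, 235.5 and 164.8 in WT. The accessory subunits Spcs1, Spcs2 and Spcs3 differed by 0.57, 1.26 and 0.61 on the deposited scale and by -0.94, -0.18 and -0.84 after scaling, and none of these passed. Against Sec11c in the same library, the Spcs2 ratio was 0.204, 0.238 and 0.220 in Ela1-Myc, against 0.113, 0.0905 and 0.0710 in WT, without overlap. Sec11a, the other catalytic subunit and not among the 36, stood at 22.3, 26.1 and 24.2 in Ela1-Myc and at 1.37, 9.95 and 1.21 in WT. It rose by 2.71 log2 units (limma adjusted p = 0.00169), and the scaled difference was 1.45 (0.0871).

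Promoter sequences are shown for the translocon and export members whose window holds the E-box CACGTG, the letters that MYC with MAX is known to bind. The RefSeq table (GRCm38.p6; 250 bases before to 50 after a gene's start) has windows for 28 of the 36 genes, and not for Srp68, Sec61a1, Ssr2, Spcs3, Sec11c, Lman1, Arcn1 and Kdelr2. Both strands were searched. The E-box was in 3 of the members' 31 windows, those of Ssr1, Sec62 and Mcfd2, and in 7.15% of all 32851 windows. Ssr1 was among the 9 that rose, Sec62 among the 4 that fell after scaling, and Mcfd2 passed on neither scale. The 250 bases before the start are printed, with the E-box in capitals, for Ssr1 (chr13:37994209-37994458, minus strand), Sec62 (chr3:30792626-30792875, plus strand) and Mcfd2 (chr17:87265948-87266197, minus strand).
Ssr1: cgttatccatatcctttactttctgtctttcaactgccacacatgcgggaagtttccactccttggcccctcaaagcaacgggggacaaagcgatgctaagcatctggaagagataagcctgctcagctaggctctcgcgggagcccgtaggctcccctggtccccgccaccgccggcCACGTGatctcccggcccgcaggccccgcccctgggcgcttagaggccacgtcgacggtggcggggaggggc
Sec62: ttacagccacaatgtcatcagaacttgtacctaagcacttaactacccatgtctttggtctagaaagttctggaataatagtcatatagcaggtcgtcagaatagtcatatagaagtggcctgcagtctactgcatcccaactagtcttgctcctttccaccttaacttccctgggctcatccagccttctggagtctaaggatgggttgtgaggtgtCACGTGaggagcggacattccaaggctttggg
Mcfd2: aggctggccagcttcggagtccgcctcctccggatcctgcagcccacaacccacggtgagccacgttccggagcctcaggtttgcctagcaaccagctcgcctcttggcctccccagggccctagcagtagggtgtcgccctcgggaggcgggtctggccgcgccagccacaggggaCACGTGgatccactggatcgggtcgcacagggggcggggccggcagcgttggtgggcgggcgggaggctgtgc
The match begins 72 bases before the start in Ssr1, 32 in Sec62 and 73 in Mcfd2. A match is a description of the letters and not a site shown to be bound.

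Oligosaccharyltransferase, which transfers a preformed sugar chain to the nascent protein, had a median log2 change of 2.21 over 5 subunits on the deposited scale and 0.74 after scaling. Of the 5, 3 rose on the deposited scale (60%, against 70.2% of all genes) and 1 after scaling (20%, against 17.1%), both shares near those of all genes. Stt3a, the catalytic subunit that works at the translocon (chromosome 9, 36729344 to 36767679), stood at 40.5, 22.1 and 38.4 in Ela1-Myc and at 0.503, 6.11 and 0 in WT. It rose in both fits (limma adjusted p = 0.000211 and 0.0297, with the listed 0 taken as measured). The scaled call was lost with a pseudocount of 0.1, with low genes kept, and without any 1 library other than WT replicate 2. Rpn1, ribophorin I (chromosome 6, 88084482 to 88105304), stood at 39.1, 22.3 and 36.1 in Ela1-Myc and at 0.157, 11.8 and 0 in WT (limma adjusted p = 0.00106; 0.0735 after scaling). No fold is given for these genes because of the 0 in WT replicate 3. Every Ela1-Myc value of both genes was above every WT value on both scales.

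The other subunits were present in each WT library. Ddost (chromosome 4, 138304730 to 138312628) stood at 72.9, 64.7 and 64.6 in Ela1-Myc and at 8.12, 40.3 and 7.55 in WT, a rise of 2.21 ± 0.745 log2 units (SE; limma adjusted p = 0.0171). The scaled difference of 0.74 did not pass (0.311). Rpn2, ribophorin II, stood at 99.2, 78.9 and 75.3 in Ela1-Myc and at 27.0, 77.8 and 28.1 in WT, and Dad1 at 228.4, 176.2 and 141.3 in Ela1-Myc and at 74.0, 180.2 and 92.7 in WT. Neither passed on either scale. Against Rpn2 in the same library, the Ddost ratio was 0.735, 0.819 and 0.857 in Ela1-Myc, against 0.301, 0.518 and 0.269 in WT. Rpn1 was at 0.394, 0.283 and 0.479 of Rpn2 in Ela1-Myc, against 0.00582, 0.151 and 0 in WT, and Stt3a at 0.409, 0.280 and 0.510, against 0.0186, 0.0785 and 0. Dad1 had 2.30, 2.23 and 1.88 times the Rpn2 value in Ela1-Myc and 2.74, 2.31 and 3.30 times in WT, with the Ela1-Myc ratios all lower.

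None of the 7 COPII genes passed on either scale in limma. Of all genes, 70.2% were higher on the deposited scale, and 17.1% were higher and 7.1% lower after scaling. At an unadjusted p of 0.05 there was 0 of the 7 on the deposited scale and 1, Mcfd2, after scaling. The share of all genes at an unadjusted p was not counted. The coat genes Sec23b, Sec24d, Sec31a and Sar1b, the GTPase that starts coat assembly, differed by 0.69 to 0.95 on the deposited scale and by -0.65 to -0.43 after scaling. Sec31a, the outer coat subunit, stood at 31.2, 14.0 and 18.3 in Ela1-Myc and at 7.73, 21.05 and 6.42 in WT (limma adjusted p = 0.190; 0.408 after scaling). Sar1b was the 1 member of this step whose groups did not overlap on the deposited scale. There, 75.3% of all genes had every Ela1-Myc value above every WT value. Sar1b stood at 12.8, 14.9 and 15.9 in Ela1-Myc and 5.29, 11.9 and 5.29 in WT (limma adjusted p = 0.106). Among the cargo receptors, Mcfd2, which with Lman1 carries certain glycoproteins, stood at 64.2, 35.3 and 44.2 in Ela1-Myc and at 28.0, 98.0 and 29.6 in WT. Its log2 change was 0.09 (limma adjusted p = 0.910), and -1.40 after scaling, where the groups did not overlap (0.0643). Lman1 differed by 0.61, and by -0.83 after scaling. Surf4 differed by 1.43, and by -0.04 after scaling, where its sign turned under several alternatives.

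COPI and KDEL receptor genes rose for 4 of the 5 measured on the deposited scale (80%, close to the 70.2% of all genes). None passed after scaling (limma, also 0 at an unadjusted p of 0.05), where 17.1% of all genes were higher and 7.1% lower at the adjusted p. Kdelr1 (chromosome 7, 45872772 to 45883732), a receptor that returns ER residents from the Golgi, stood at 54.2, 33.8 and 40.1 in Ela1-Myc and at 4.56, 27.0 and 6.57 in WT. It rose by 2.02 ± 0.698 log2 units (SE; limma adjusted p = 0.0191), and the scaled change was 0.59 (0.387). Kdelr2 (chromosome 5, 143403838 to 143421901) stood at 31.3, 22.6 and 26.4 in Ela1-Myc and at 5.04, 12.98 and 5.24 in WT, a rise of 1.77 ± 0.569 (limma adjusted p = 0.0135), and the scaled difference was 0.35 (0.440). For both receptors every Ela1-Myc library was above every WT library on the deposited scale, as for 75.3% of all genes. The groups overlapped after scaling. Within each library Kdelr1 was at 2.09, 1.98 and 1.87 times the cargo receptor Lman1 in Ela1-Myc and at 0.503, 0.974 and 0.676 times in WT.

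The coat subunits Copb1 and Copb2 rose on the deposited scale, and Arcn1 did not pass; the difference between them was not tested. Copb1, beta-COP (chromosome 7, 114215559 to 114254711), stood at 19.1, 15.3 and 17.3 in Ela1-Myc and at 3.69, 10.7 and 4.20 in WT, a rise of 1.46 ± 0.526 log2 units (SE; limma adjusted p = 0.0233). Its scaled difference was 0.09 (0.838). Copb2, beta-prime-COP (chromosome 9, 98563721 to 98588382), stood at 28.1, 20.2 and 21.7 in Ela1-Myc and at 4.20, 15.1 and 4.43 in WT, a rise of 1.65 ± 0.587 (limma adjusted p = 0.0222). Its scaled difference was 0.25 (0.641). Arcn1, delta-COP, stood at 32.6, 21.1 and 26.5 in Ela1-Myc and at 11.8, 31.8 and 11.7 in WT (limma adjusted p = 0.358; 0.146 after scaling). Inside each library Copb1 was at 0.586, 0.724 and 0.653 of Arcn1 in Ela1-Myc and at 0.314, 0.338 and 0.358 in WT. Copb2 was at 0.860, 0.955 and 0.821 of Arcn1 in Ela1-Myc and at 0.357, 0.475 and 0.378 in WT, and neither ratio overlapped. These pairs, too, were chosen after their values were seen.

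The promoter of Copb1 is shown for the letters TGACGTGG, the core of an element through which XBP1 and ATF6 act in the unfolded protein response. They were in 3 of the members' 31 windows, those of Copb1, Copb2 and Sec24d, against 0.676% of all windows, both strands searched. The longer ER stress element was in 0 of the 31 and in 0.119% of all windows, which says only that its letters are not in these windows. The 250 bases before the start of Copb1 (chr7:114254681-114254930, minus strand) carry the match on the opposite strand, in capitals.
Copb1: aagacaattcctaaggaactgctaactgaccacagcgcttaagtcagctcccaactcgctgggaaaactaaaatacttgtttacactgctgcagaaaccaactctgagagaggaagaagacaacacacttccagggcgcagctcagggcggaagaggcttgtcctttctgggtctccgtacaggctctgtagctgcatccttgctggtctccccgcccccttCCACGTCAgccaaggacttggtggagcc
Copb1 and Copb2 were among the 9 that rose on the deposited scale and Sec24d was not, with 20.1, 7.32 and 9.09 in Ela1-Myc and 6.27, 13.1 and 3.06 in WT (limma adjusted p = 0.274; 0.388 after scaling).

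Other genes of the same route were listed by function and counted in the same fits. Of 75 listed, 71 had a row and 66 were tested: 28 rose (42.4%, against 70.2% of all genes) and 0 fell on the deposited scale, with a median of 1.00. After scaling 3 rose (4.55%, against 17.1%) and 6 fell (9.09%, against 7.1%), with a median of -0.27. By step, those that rose on the deposited scale numbered 6 of 12 (50%) for the SRP and translocon, 10 of 16 (62.5%) for glycosylation, 6 of 20 (30%) for COPII and 6 of 18 (33.3%) for COPI and retrieval, each share below the 70.2% of all genes. In the scaled fit, 0, 1 (6.25%), 2 (10%) and 0 rose for these steps in the same order, against 17.1% of all genes. Those that fell numbered 1 (8.33%), 1 (6.25%), 1 (5%) and 3 (16.7%), against 7.1%. After scaling, the only one that rose and was above 0 in every library was Sec23a, the paralogue of Sec23b, at 3.73, 2.00 and 2.50 in Ela1-Myc and 0.168, 0.403 and 0.381 in WT (log2 change 0.76 ± 0.201, SE; limma adjusted p = 0.0363). Sec23b, at 22.9, 15.8 and 15.1 in Ela1-Myc and 7.27, 17.3 and 5.11 in WT, did not pass (limma adjusted p = 0.151; 0.420 after scaling). The count of 28 other pathway genes on the deposited scale depended on WT replicate 2. Without that library 53 of 66 rose, against 81.1% of all genes. With 1 of the other libraries left out, 9 to 19 rose, against 49.5% to 62% of all genes.

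The other changes on the deposited scale included glucosidase II alpha, Ganab, which trims the transferred sugar chain, at 30.9, 27.7 and 27.1 in Ela1-Myc and 3.63, 15.4 and 1.83 in WT (log2 change 2.30; limma adjusted p = 0.00640). Sec13, an outer COPII coat subunit, stood at 55.4, 41.7 and 37.6 in Ela1-Myc and 4.93, 35.8 and 7.35 in WT (1.89; adjusted p = 0.0331). Neither passed after scaling. The COPI zeta subunit Copz2 fell after scaling by 2.03 log2 units (limma adjusted p = 0.0200), with deposited values of 66.0, 24.7 and 38.9 in Ela1-Myc and 39.8, 87.1 and 56.3 in WT. Tram1, a translocon-associated membrane protein, fell by 1.47 (adjusted p = 0.0358) and the COPI regulator Arfgap3 by 1.29 (0.0410) after scaling; their deposited-scale changes were 0.02 and 0.13.

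Transcript length and level were set beside the members' changes. Over the 36 genes, Spearman's rho between the deposited-scale change and the longest annotated transcript was 0.14, and with the mean level -0.20; after scaling these were 0.19 and -0.28. Over the 7826 tested genes with an annotated transcript they were -0.20 and 0.29, and -0.09 and 0.01 after scaling. All genes share the same 6 libraries, and these are descriptions across genes, which are not independent replicates.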

How the data were processed

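Each deposited file gives an adjusted FPKM for every gene of 1 library, per the file headers; the adjustment by the authors was not given in the sources used here. Per the submitters' processing notes, the mouse build was GRCm38 (mm10) and the tools included TopHat2 2.0.4, Cufflinks 2.0.2, CASAVA 1.8 and FastQC 0.9.4, besides affy and Bowtie. All values were divided by 100000, after which libraries summed to between 629597 and 1948840 over the 23099 symbols, each with 1 row kept. Of 187 symbols with several rows the highest-mean row was kept; no member had several. In addition, 4459 rows share 1 value within each WT library and are 0 in every Ela1-Myc library.

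The test kept genes whose mean reached 1 and ran on log2(value + 1) by limma 3.58.1 in R 4.3.3, its variance trend switched on, two-sided, Benjamini-Hochberg adjusted over all 8802 genes at 0.05, Ela1-Myc against WT with no covariate. Fold changes on this scale understate those of low genes. A second fit divided each library by its median-of-ratios size factor over 11198 genes above 0 in all 6 libraries. No label ties a library to its own animal, so the spread behind each p-value may be technical. Replicate numbers follow the order of deposit and pair nothing. Depth is unknown and no counting interval is given.

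Values in every library are printed for members called in either fit, for the most abundant member of each complex and for members at 0, with further members added where they are a partner in the text. The other pathway genes named have the largest changes among those called and above 0 in all libraries, up to 3 per direction and scale; Sec23b and the subunit ratios were added after their values were seen. Members and lists, including those of cell type markers (acinar, duct, islet, macrophage, lymphocyte, plasma cell, stellate, endothelial and adipocyte), were chosen with earlier results of these data known. Gene coordinates are from GENCODE M21 and promoters from RefSeq, both GRCm38. Plots used Python 3.11.15 with matplotlib 3.10.9.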

Additional observations from a re-analysis of the deposited data

How the results depend on the processing

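No paired analysis was possible because the labels give no replicate numbers. Leaving out 1 library at a time gave 3 to 30 members higher on the deposited scale, and 0 to 3 higher and 0 to 4 lower after scaling. Over all genes it gave 3937 to 7441 higher and 4 to 67 lower on the deposited scale, and 429 to 1942 higher and 140 to 606 lower after scaling. Among the other pathway genes it gave 9 to 53 higher on the deposited scale, and 0 to 3 higher and 0 to 8 lower after scaling. With library weights, 30 members were higher on the deposited scale and 2 after scaling, 132 of all genes were lower on the deposited scale, and 56 other pathway genes were higher on the deposited scale and 12 lower after scaling. After scaling, a pseudocount of 0.1 gave 0 members, 829 of all genes and 1 other pathway gene higher. Without a filter 0 members and 0 other pathway genes were higher after scaling, and 17 other pathway genes on the deposited scale. With only genes above 0 in all libraries, which leaves out Rpn1 and Stt3a, 0 members, 647 of all genes and 1 other pathway gene were higher after scaling. Quantile normalization gave 10 members, 1372 of all genes and 24 other pathway genes lower, and 1 member, 962 of all genes and 2 other pathway genes higher. With the digestive enzymes left out 2 members were higher and 6 lower after scaling. Of all genes, 401 were then lower, against 625 as reported, and more were higher than the 1504 as reported. Size factors from genes with a mean of at least 5, chosen after seeing the data, gave 2 members higher and 6 lower. The cause of these differences was not tested. Without Rpn1 and Stt3a the SRP and translocon share averaged 69.6% in Ela1-Myc and the glycosylation share 15.6%. Without Ssr4, also chosen after seeing the data, the shares in Ela1-Myc and WT averaged 61.7% and 65.9% for the SRP and translocon, 21.4% and 17.7% for glycosylation, 9.64% and 11.5% for COPII, and 7.30% and 4.88% for COPI and retrieval. Some log2 changes turned sign, and none of these was called in the setting where it turned; as reported, the scaled Ssr2 change was 0.70. Leaving out 1 library at a time, the deposited-scale change ran between -0.29 and 0.52 for Srp9, -0.19 and 0.61 for Srpr, -0.0595 and 0.66 for Sec62, -0.31 and 0.51 for Sec11c, and -0.21 and 0.67 for Mcfd2. The scaled change ran between -0.80 and 0.0754 for Srprb, -0.58 and 0.05 for Sec61a1, -0.0734 and 1.17 for Ssr2, -0.47 and 0.37 for Surf4, -0.14 and 0.27 for Copb1, and -0.0549 and 0.55 for Copb2. With the enzymes left out it was 0.0346 for Sec61a1, 0.0582 for Spcs2 and 0.20 for Surf4. With size factors from genes with a mean of at least 5 it was 0.0063 for Spcs2 and 0.14 for Surf4. Copb1 was at -0.0019 with library weights and -0.12 with quantile normalization. Depth is unknown, so no counting error can be given for low values.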
